A study of Homo sapiens with 6 samples.

Results

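The part of chromosome 8 that holds MYC and PVT1 was examined in 4 lists of enriched regions. They come from H82 and H524, established lines of human small cell lung cancer. MYC encodes a basic helix-loop-helix transcription factor that promotes growth and proliferation, and PVT1 is the long non-coding RNA gene that follows it on the same strand. Members were all distinct regions between 127.0 and 129.5 Mb in build hg19, a window of 2.5 Mb in which MYC lies at 128.748 to 128.754 Mb and PVT1 at 128.807 to 129.113 Mb. This gave 190 of the 61250 regions in the 4 lists, namely 27 of 3854 for NeuroD1 in H82, 86 of 20593 for NeuroD1 in H524, 32 of 18208 for H3K4me3 in H82 and 45 of 18595 for H3K4me3 in H524. The window was chosen by position after high score ranks had been seen in it, so the ranks, and the widths and summit numbers that go with them, are given as a description. Gene positions are known here to the nearest 1 kb, and distances to a gene and covered shares of a gene carry that precision.

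Both lines were cultured without treatment, and each was profiled by chromatin immunoprecipitation sequencing with 1 library for NeuroD1, 1 for H3K4me3 and 1 input without antibody, which is not analysed here. Each line is a single established culture, and with 1 library per antibody and line there is no spread between replicates and no test of a difference. The antibodies came from Cell Signaling (NeuroD1) and Abcam (H3K4me3), per the labels. The files give no read numbers, depth is therefore unknown, and exact Clopper-Pearson 95% intervals cover counting error only. The intervals treat neighbouring regions as independent. The score of a region is the authors' value on a −log10 scale and is compared only as a rank or percentile inside its own list, where rank 1 is the highest score.

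NeuroD1, a transcription factor of neurogenesis, binds DNA at E-boxes together with E-proteins and marks one of the neuroendocrine subtypes of small cell lung cancer. H3K4me3 is the histone mark of active promoters, and wide stretches of it are typical of strongly transcribed genes. MYC is known for enhancers that lie far from it in a large surrounding stretch with few coding genes, and the PVT1 promoter is known as an element that can compete with MYC for such enhancers. In RefSeq order (GRCh38.p14, used for names only), the coding gene before MYC is POU5F1B and the one before that is LRATD2, while the next coding gene after MYC is GSDMC. The regions were not assigned to these neighbours.

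Both lines belong to those known to carry extra copies of the MYC region. Copy number was not measured in the lists, and its part in the number, width and rank of the regions was not tested.

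The window was dense in regions under both antibodies. H524 had 34.4 NeuroD1 regions per Mb in the window against 5.86 on the rest of chromosome 8, and H82 had 10.8 against 1.36. For H3K4me3 the densities were 18.0 against 4.76 in H524 and 12.8 against 5.42 in H82. The window was thus 5.87-fold and 7.91-fold denser than the rest of the chromosome for NeuroD1 in H524 and H82, and 3.78-fold and 2.36-fold denser for H3K4me3. NeuroD1 regions covered 144 kb of the window in H524 and 33.7 kb in H82, and H3K4me3 regions covered 44.3 kb and 52.9 kb. The NeuroD1 excess of H524 over H82 therefore had no parallel in covered length under H3K4me3, in the window as over the whole lists. The whole NeuroD1 lists covered 11904 kb in H524 and 1886 kb in H82, and the H3K4me3 lists 12934 kb and 14970 kb. The 2.5 Mb before the window held 29 NeuroD1 regions in H524 and 12 in H82, and the 2.5 Mb after it held 11 and 7, so both flanks were less densely occupied than the window itself. H3K4me3 followed the same order, with 17 and 20 regions before and 4 and 5 after.

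**Figure D1:**
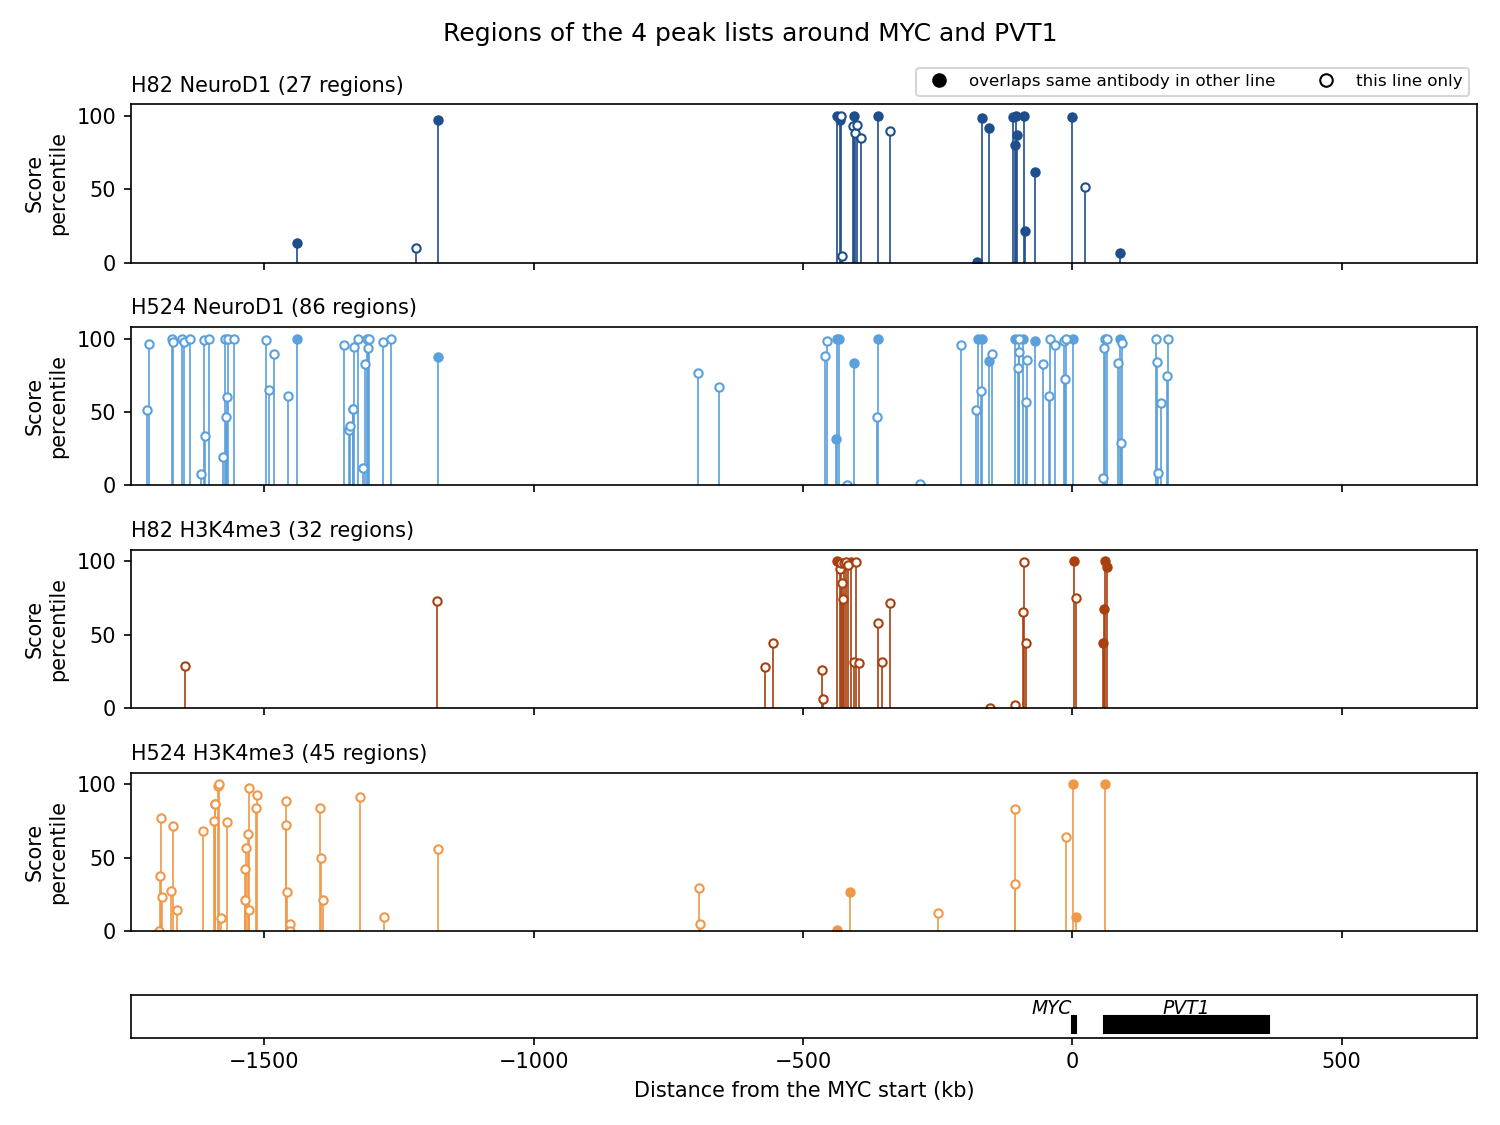
Score percentile of each region inside its own list (vertical axis) against the distance of its centre from the MYC start in kb (horizontal axis), with 1 panel for each list and the extent of MYC and PVT1 at the bottom. Filled points overlap a region of the same antibody in the other line and open points do not. The left side of the window holds many points in H524, nearly all of them open, and few in H82. No list has a region in the right part.

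Regions of the window held many of the highest ranks, most of all for NeuroD1 in H524. Of the 100 highest-scoring NeuroD1 regions of H524, 27 lay in the window, and of the 25 highest 16 did. In H82, 10 of the 100 and 6 of the 25 highest NeuroD1 regions lay there. H3K4me3 had fewer, with 7 of the 100 highest in H82 and 3 in H524. By a share at or above the top 10% of the list, 45 of 86 NeuroD1 regions in H524 (52.3%, where the whole list has 10.1%) and 14 of 27 in H82 (51.9%, list 9.99%) ranked high. For H3K4me3 the counts were 12 of 32 in H82 (37.5%, list 10.0%) and 7 of 45 in H524 (15.6%, list 10.0%). The rule was set with these ranks in view, so nothing is read from the difference to the lists. High and low ranks stood side by side, since the percentiles of the H524 NeuroD1 regions ran from 0.0704 upward with a median of 94.0, and those of the H82 NeuroD1 regions from 0.350 with a median of 92.1. The medians of the H3K4me3 regions were 72.4 in H82 and 55.8 in H524.

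NeuroD1 regions of the window were wide and often had several summits. The median width was 964 bp in H524 and 950 bp in H82, 2.05-fold and 2.29-fold the median of the list. Several summits were recorded for 54 of 86 regions in H524 (62.8%, list 12.1%) and for 15 of 27 in H82 (55.6%, list 5.71%). H3K4me3 regions had a median width of 516 bp in H524 and 502 bp in H82, 0.981-fold and 0.891-fold that of the list, although 20 of 45 (44.4%, list 19.7%) and 16 of 32 (list 22.4%) had several summits. The plot of width against score gives both measures for every region. The files list a score for each summit but no summit position.

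**Figure D2:**
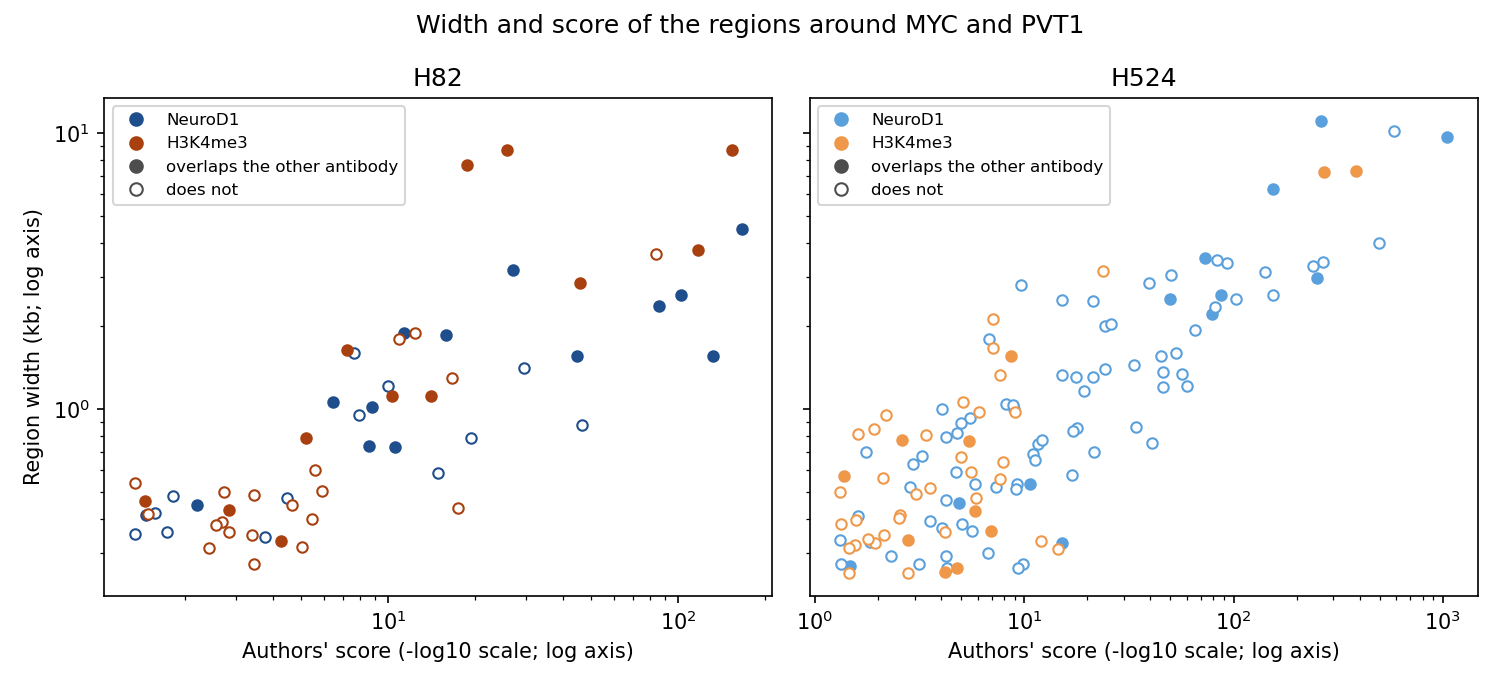
Width in kb (vertical log axis) against the authors' score on a −log10 scale (horizontal log axis) for every window region of H82 (left) and H524 (right). Filled points overlap a region of the other antibody in the same line; the widest region is 8.68 kb under H3K4me3 in H82 and 11.1 kb under NeuroD1 in H524.

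The MYC start was the one place near either gene where all 4 lists had a high-ranking region. NeuroD1 of H82 was listed at 128746144 to 128749340, with rank 31, 9 summits and a highest summit score of 26.9. NeuroD1 of H524 was listed at 128745578 to 128751847, with rank 9, 13 summits and a highest summit score of 154. H3K4me3 was listed from 128746175 to 128754838 in H82, with 20 summits and rank 2, and from 128746165 to 128753376 in H524, with 16 summits and rank 2. All 4 regions began between 1.83 and 2.42 kb before the MYC start, so their left ends were nearly aligned. Their right ends differed, at 1.34 kb after the start for NeuroD1 in H82, 3.85 kb for NeuroD1 in H524, 5.38 kb for H3K4me3 in H524 and 6.84 kb for H3K4me3 in H82. The stretch common to the 4 regions was 3166 bp long, from 128746175 to 128749340, and was the NeuroD1 region of H82 less its first bases.

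Over the length of MYC itself, H3K4me3 covered 100% in H82 and 94.8% in H524, the latter with a second, weak region at 128753690 to 128754085 (rank 16822). NeuroD1 covered 64.1% of the gene in H524 and 22.3% in H82. With bounds known to 1 kb over a length of 6 kb, these shares are approximate. Whether the weak H524 region lies inside the gene end is not settled. The summit scores inside each region were uneven. Among the 16 summits of the H524 H3K4me3 region they ran from 2.39 to 272 with a median of 193, and among the 20 of the H82 region from 2.86 to 154 with a median of 40.1. For NeuroD1 they ran from 3.21 to 154 in H524 and from 4.98 to 26.9 in H82. At least 50% of the highest summit score was reached by 10 of 16 H3K4me3 summits in H524 and by 7 of 20 in H82.

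Beside the MYC start, H524 had further NeuroD1 regions that were not listed in H82. The nearest spanned 128734571 to 128738085 with rank 26 and 7 summits and overlapped a narrow H3K4me3 region of H524. Others lay at 128731422 to 128733466 (rank 310) and at 128705848 to 128707402 (rank 73). Between MYC and PVT1, H82 had a single weak NeuroD1 region, from 128771568 to 128771911 with rank 1879.

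At the PVT1 start, which lies 59 kb after that of MYC, NeuroD1 was listed in H524 alone, and both lines had a high-ranking H3K4me3 region. H524 had 4 NeuroD1 regions within 5 kb of the start, with ranks 25, 55, 1230 and 19597, whereas H82 had none. The H524 region over the start itself occupied 128806754 to 128808956, where its 4 summits reached 79.1, and the one at 128811498 to 128814004 had 6 summits and a score of 49.7. The NeuroD1 region of H82 nearest to the PVT1 start was 28.8 kb away, from 128835849 to 128836267, with a score of 1.58 and rank 3611. With no region listed, NeuroD1 at the PVT1 start in H82 was not detectable at the threshold of that list, which holds 3854 regions where the H524 list holds 20593.

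H3K4me3 at the PVT1 start was high in both lines. In H524 it formed 1 region of 7.31 kb, 128805090 to 128812396, whose 15 summits reached 385, the highest score of the whole list. In H82 the same stretch was covered by 4 separate regions between 128805069 and 128812361, of which the one from 128806582 to 128810241 had rank 7 and a score of 84.0. The outer ends nearly coincided between the lines, and H3K4me3 covered 6.26 kb there in H82 and 7.31 kb in H524. All 4 H524 NeuroD1 regions at this start overlapped the H3K4me3 region of the same line, where 16.0% of the whole NeuroD1 list overlapped the mark.

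**Figure D3:**
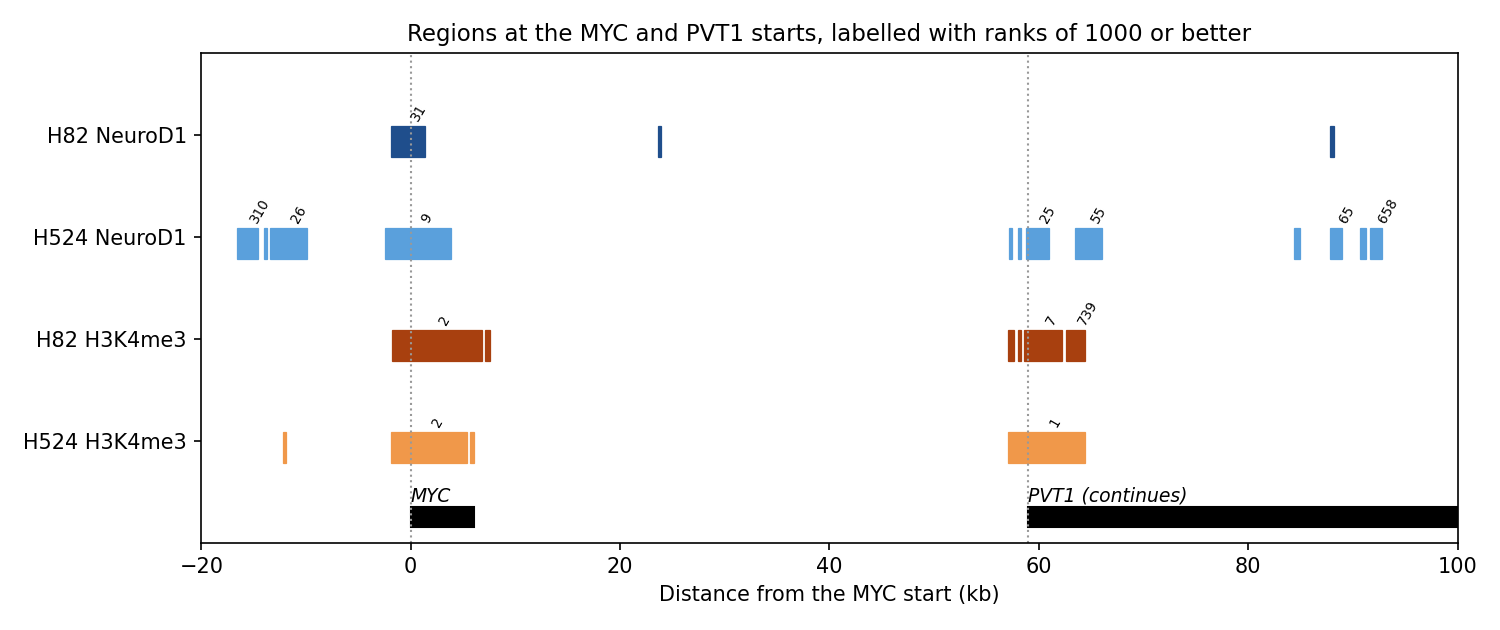
Regions of the 4 lists from 20 kb before to 100 kb after the MYC start (horizontal axis, kb), drawn to scale as boxes, with the rank of a region in its list printed where it is 1000 or better. Dotted lines mark the starts of MYC and PVT1; all 4 lists have a box over the MYC start, and the H82 NeuroD1 row has none at the PVT1 start.

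Inside the PVT1 gene, NeuroD1 of H524 extended far beyond the promoter mark. There were 12 H524 regions touching the gene, covering 5.18% of it, and the last ended 120 kb after its start, at 128926670. They included 128835815 to 128837016 (rank 65), 128901972 to 128905045 (rank 53) and 128925082 to 128926670 (rank 46). Only the first of these had a counterpart in H82, which was the single H82 NeuroD1 region in the gene. H3K4me3 ended 5.36 kb after the PVT1 start in H82 and 5.40 kb after it in H524, so no H524 NeuroD1 region of the gene body beyond the start group overlapped the mark.

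No list had a region in the remaining 186 kb of PVT1 or in the 573 kb from the last H524 NeuroD1 region to the end of the window. The stretch without NeuroD1 was 880 kb long in H524 and 1393 kb in H82. For H3K4me3 it was nearly the same in both lines, from 128812362 to 130950471 in H82 and from 128812397 to 130951203 in H524, or 2138 kb and 2139 kb.

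Most regions lay before MYC. So did most of the window's length, with the MYC start at 128.748 Mb between bounds of 127.0 and 129.5 Mb. The counts that follow are not adjusted for this length. The counts upstream of the MYC start were 24 of 27 for NeuroD1 in H82, 71 of 86 for NeuroD1 in H524, 26 of 32 for H3K4me3 in H82 and 42 of 45 for H3K4me3 in H524. The numbers in this upstream stretch differed between the lines by place and antibody. From 127.0 to 127.5 Mb, H524 had 36 NeuroD1 and 33 H3K4me3 regions, whereas H82 had 1 of each. From 127.5 to 128.0 Mb each list had at most 2 regions. From 128.0 to 128.5 Mb, H82 had 11 NeuroD1 and 19 H3K4me3 regions, and H524 had 12 and 5. From 128.5 to 129.0 Mb the NeuroD1 counts were 13 in H82 and 37 in H524, and the H3K4me3 counts were 11 and 6.

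**Figure D4:**
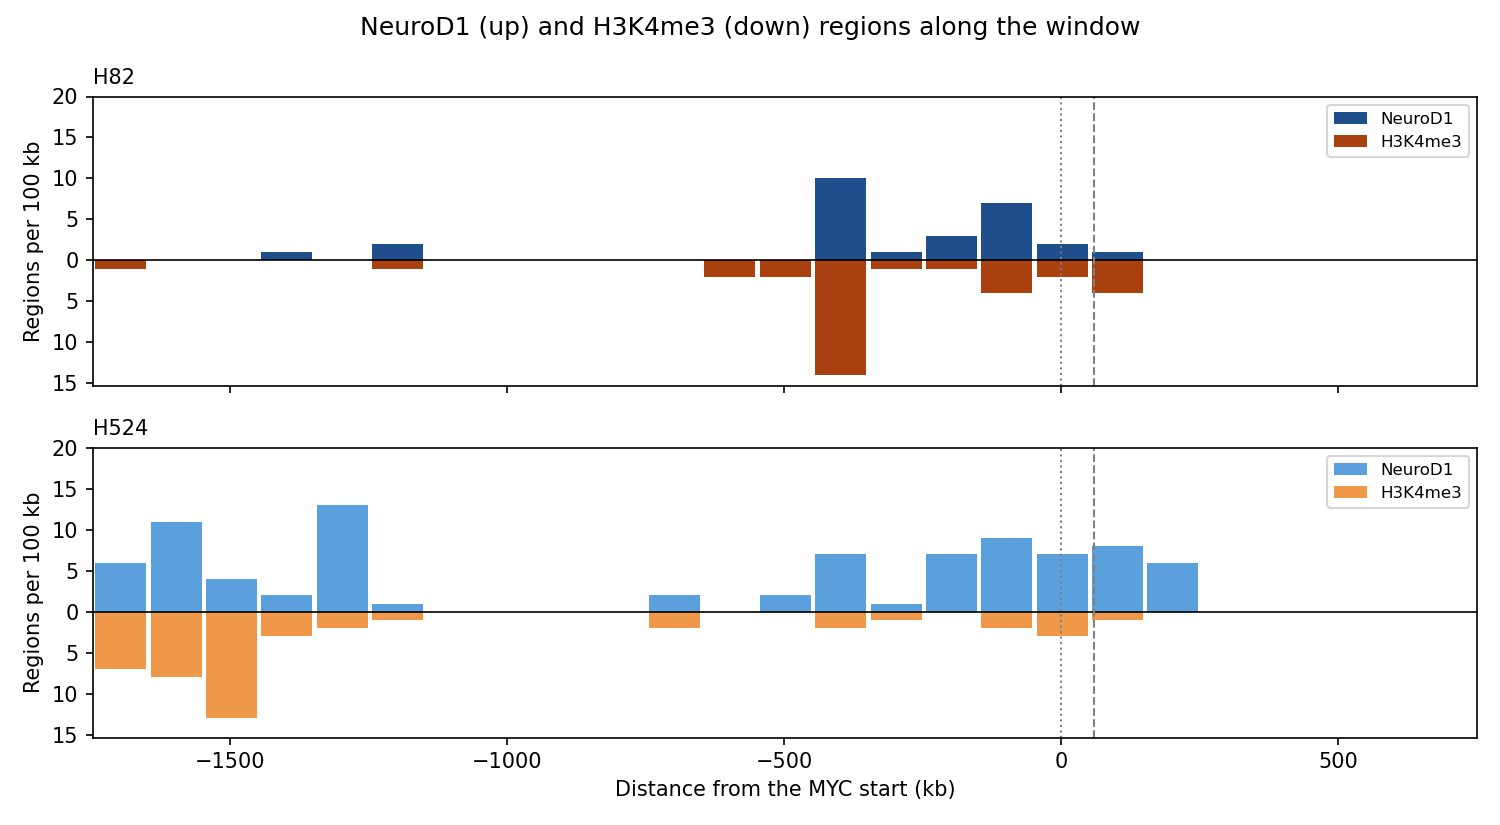
Number of regions in each 100 kb of the window for NeuroD1 (bars upward) and H3K4me3 (bars downward) in H82 (top) and H524 (bottom), against the distance from the MYC start in kb. The dotted and dashed lines mark the starts of MYC and PVT1; the first 500 kb hold 36 NeuroD1 regions in H524 and 1 in H82.

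The antibodies of a line shared many of the stretches that held regions. Of the 25 stretches of 100 kb, 12 held H3K4me3 regions in H524, and all 12 also held NeuroD1 regions, while 3 held NeuroD1 alone and 10 neither. In H82, 7 held both, 1 NeuroD1 alone, 3 H3K4me3 alone and 14 neither. All 8 stretches with NeuroD1 in H82 also had it in H524, and another 7 had it in H524 alone. Such counts were not made outside the window, so nothing particular to the window is read from them. The empty part between the far upstream regions and the rest had nearly the same ends for both antibodies in H524, from 127570858 to 128054203 for NeuroD1 (483 kb) and from 127570437 to 128054818 for H3K4me3 (484 kb). In H82 it ran from 127570949 to 128310002 for NeuroD1 (739 kb) and from 127569107 to 128177161 for H3K4me3 (608 kb). The part of copy number in this arrangement was not tested.

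The far upstream stretch carried NeuroD1 ranks 1, 3, 7, 8 and 10 of H524. Rank 1 spanned 127416792 to 127426493, centred 1326 kb before the MYC start, and its 13 summits reached 1048. It was the strongest of 12 regions that followed each other at under 10 kb from 127395437 to 127443995, together covering 21.7 of 48.6 kb. Rank 3, from 127189111 to 127193099 with a score of 498, belonged to a group of 6 regions that also held ranks 8 and 22. Ranks 7 and 10 lay in a group of 3 regions from 127094675 to 127112008. None of these 3 groups overlapped NeuroD1 of H82. In the 500 kb from 127.0 Mb, 12 regions had rank 100 or better and 1 of 36 had a counterpart in H82, where the whole list has 9.98%, so most H524 regions anywhere lacked one. That region, at 127306608 to 127309113 with rank 14 in H524, overlapped a weak H82 region of rank 3303.

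Few regions of the antibodies coincided in this stretch, as in the whole lists of H524. Of the 33 H3K4me3 regions 4 overlapped NeuroD1 of H524 (whole list 18.0%), and of the 36 NeuroD1 regions 3 overlapped H3K4me3 (whole list 16.0%). The strongest H3K4me3 region, at 127162630 to 127165804 (rank 17, score 23.8, 6 summits), was 6.32 kb from the nearest NeuroD1 region. NeuroD1 rank 1 carried a H3K4me3 region over part of its length (127424908 to 127426457, rank 1642), while NeuroD1 ranks 3, 7 and 8 carried none, the latter pair being 8.53 and 1.24 kb from the nearest one. None of the 33 H3K4me3 regions overlapped H3K4me3 of H82, where 52.9% of the whole H524 list did. The single H82 region of the stretch, at 127099536 to 127099923, had rank 12904 and lay outside them.

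NeuroD1 ranks 1 and 3 of H82 lay in a stretch far before MYC and carried H3K4me3. Rank 1, at 128310003 to 128314497, had a score of 166 over 8 summits, and rank 3, at 128341853 to 128344442, a score of 102 over 5 summits. H3K4me3 of H82 covered this stretch with 12 regions at under 10 kb from each other, from 128309413 to 128351839. They covered 29.1 of 42.4 kb and held 59 summits, and 4 of them had rank 100 or better. Wide ones were 128309413 to 128313182 (3.77 kb, rank 3), 128333107 to 128340787 (7.68 kb, rank 78) and 128342247 to 128350925 (8.68 kb, rank 32), the last being the widest H3K4me3 region of H82 in the window and slightly wider than that over MYC.

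H524 had NeuroD1 but hardly any H3K4me3 in the same stretch. Its NeuroD1 region from 128310480 to 128313456 lay within rank 1 of H82 and had rank 6 with a score of 250. At rank 3 of H82 it had a narrow region of 0.533 kb with rank 3356. The only H3K4me3 regions of H524 there were 128311489 to 128312059 (rank 18493, percentile 0.551) and 128336161 to 128336563 (rank 13677, percentile 26.5). The H82 NeuroD1 regions of this stretch without a counterpart in H524 included 128317870 to 128319415, with rank 12 and H3K4me3 of H82 over it.

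Closer to MYC, a strong pair had the mark in H82 alone. In H82 the NeuroD1 region 128387301 to 128389664 ranked 4 in its list. Its H524 counterpart, 128386645 to 128390052, also ranked 4. The place carried a narrow H3K4me3 region in H82 (rank 7635) and none in H524, where the nearest was 50.1 kb away. Scores in the 2 lists were 86.3 and 267, which are not comparable between lists.

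About 100 kb before MYC, both lines had a compact group of NeuroD1 regions. H524 had 2 very wide ones, from 128635364 to 128646509 (11.1 kb, 20 summits, rank 5) and from 128650475 to 128660675 (10.2 kb, 19 summits, rank 2), the first being the widest of its list. With 5 smaller ones they covered 84.9% of 29.5 kb. In H82 the first of them corresponded to 4 separate regions, with ranks 10, 27, 499 and 769, and the second to 2, with ranks 2 and 3029. H82 rank 2, from 128657760 to 128659306, was 1.55 kb wide with a single summit and a score of 132. It lay on a H3K4me3 region of H82 with rank 14, from 128657288 to 128660152, whereas H3K4me3 of H524 was 8.75 kb from its NeuroD1 region of rank 2. H3K4me3 of H524 in the group comprised narrow regions of ranks 3104 and 12267, both in the first of the wide NeuroD1 regions.

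Taking the window as a whole, 18 of 27 NeuroD1 regions of H82 overlapped NeuroD1 of H524 (66.7%, interval 46.0 to 83.5), where the share over the whole list was 53.6%. From the other side, 15 of 86 regions of H524 overlapped NeuroD1 of H82 (17.4%, 10.1 to 27.1), against 9.98% over the list. The list share lay inside the first interval and just outside the second. These intervals count neighbouring regions as independent, although joining within 10 kb left 15 groups in H82 and 31 in H524. They may be too narrow, so nothing is read from them about the differences from the lists. Both differences depended on the setting: that of H82, 13.1 points above the list, was 44.6 points with lists of equal length and −18.6 points with 200 bp around the centre of each region, and that of H524, 7.46 points, was 22.7 points with regions within 10 kb joined and −1.14 points with the 200 bp. Each of these differences was taken against the list under the same setting. Among regions in the top 10% of their list, the shares were close to those outside the window. They were 11 of 14 (78.6%) against 81.4% in H82, and 11 of 45 (24.4%) against 25.9% in H524. The 20 overlapping pairs included 9 in which both regions were in the top 10% of their list. In 18 pairs the overlap covered at least 50% of the narrower region.

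Rank in one line did not go with rank in the other throughout. The pairs with the highest smaller percentile were those already described at H82 ranks 1, 2, 4 and 10, then H82 rank 27 and the MYC start. After them came 128579561 to 128580347 (rank 66), which overlapped the H524 region of rank 38, and 128314943 to 128316798 (rank 98), which overlapped that of rank 109. Far upstream, 127570361 to 127570948 ranked 113 in H82, and its H524 counterpart ranked 2538. Strong H524 regions met H82 regions near the threshold at 128571299 to 128571649 (rank 3841 against rank 31) and at 128835849 to 128836267 (rank 3611 against rank 65). The reverse was seen for H82 rank 3, which met rank 3356 of H524.

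H3K4me3 was shared at a smaller share of its regions in the window than over the lists. The overlap with the other line was 7 of 32 regions in H82 (21.9%, 9.28 to 40.0; whole list 52.4%) and 5 of 45 in H524 (11.1%, 3.71 to 24.1; whole list 52.9%). On the rest of chromosome 8 the shares were 48.8% and 60.3%. The H82 value drew largely on 128.0 to 128.5 Mb, where 2 of 19 regions were shared. From 128.5 to 129.0 Mb 5 of 11 were. The H524 value rested on the far upstream stretch, which held 33 of the 45 regions: within 1 Mb of the MYC start 5 of 11 were shared (45.5%), −7.49 points from the list. Among the top 10% by score, 5 of 12 window regions of H82 were shared (41.7%, 15.2 to 72.3) against 83.9% outside the window, and 2 of 7 of H524 (28.6%, 3.67 to 71.0) against 83.5%. The shared H82 regions were the one over MYC, the 4 at the PVT1 start, and 2 of the group far before MYC whose H524 partners were weak. Pairs with both regions in the top 10% of their list numbered 3, all at the MYC and PVT1 starts.

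NeuroD1 coincided with the promoter mark at a larger share of its regions in H82 than in H524. In H82, 14 of 27 NeuroD1 regions lay on H3K4me3 of that line (51.9%, 31.9 to 71.3), where the whole list had 29.4% and the rest of chromosome 8 had 20.9%. The H82 value rested on 1 stretch. From 128.0 to 128.5 Mb 10 of 11 regions carried the mark, and from 128.5 to 129.0 Mb 4 of 13 did. In H524 the count was 12 of 86 (interval 7.42 to 23.1%), where the whole list had 16.0% and the rest of the chromosome 12.2%, so the H524 share was near its background. From the side of the mark, 12 of 32 H3K4me3 regions of H82 overlapped NeuroD1 (37.5%, 21.1 to 56.3; list 6.34%), and 11 of 45 in H524 (24.4%, 12.9 to 39.5; list 18.0%). The difference between the lines was not tested, with 1 library each.

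Each NeuroD1 region was also classed by the lines in which it carried the mark. Of the 27 H82 regions, 3 carried H3K4me3 in both lines, 11 in H82 alone, 1 in H524 alone and 12 in neither. The shares with the mark in H82 alone and in neither line were 40.7% and 44.4%, against 15.7% and 68.4% over the whole H82 list. Of the 86 H524 regions, 7 carried it in both, 5 in H524 alone, 8 in H82 alone and 66 in neither. The last made up 76.7%, near the 79.6% of the whole H524 list. H82 regions found in both lines and marked in H82, 8 in number, had a median width of 2110 bp, against 688 bp for the 10 shared and unmarked ones. An overlap of 1 bp is met more easily by a wide region, so nothing is read from these widths. The 63 H524 regions without counterpart and without mark had a median percentile of 85.8 and included rank 3. In H82 only 3 regions were of this kind, at 128354135 to 128355732 (rank 582), 128771568 to 128771911 (rank 1879) and 127530215 to 127530573 (rank 3436).

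Most NeuroD1 regions without the mark lay within 50 kb of it, but most were more than 10 kb away. Measured to the nearest H3K4me3 region of their line, the 74 of H524 had a median distance of 17.6 kb, against 60.4 kb over the list. Of these 74, 63 were within 50 kb (85.1%, unmarked regions of the list 45.6%). Among the 13 of H82 the median was 15.4 kb, against 37.5 kb over the list, and 12 were within 50 kb (92.3%, list 55.3%). Within 10 kb were 26 of the 74 in H524 (35.1%, list 17.9%) and 6 of the 13 in H82 (46.2%, list 28.5%). The longest distances were 113 kb in H524 and 208 kb in H82. The density of H3K4me3 regions in the window was higher than on the rest of the chromosome, as given above.

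At the left edge of the window, the first members had percentiles of 51.7 and 13.1 for NeuroD1 in H524 and H82. For H3K4me3 they had 0.153 and 28.9. The last members on the right were strong in 3 of 4 lists. The first region inside and the last one before the window had ranks 9943 and 4712 for NeuroD1 in H524, 3303 and 3744 for NeuroD1 in H82, 18567 and 13179 for H3K4me3 in H524, and 12904 and 155 for H3K4me3 in H82. The last of these, from 126442390 to 126445226, lay over 500 kb before the window. The last members had ranks 46, 3611, 1 and 739 in the same order, and the first regions after the window had ranks 6538, 2326, 10913 and 15887.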

How the data were processed

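Per the submitters' processing notes, the tools included Bowtie 1.1.2, a read aligner, and MACS2 2.1.1, a peak caller, with build hg19; no role is stated for them. Peak-calling settings, duplicate handling and input control: not given in the sources used here. Each list deposited by the authors holds 1 library in 5 columns, and its score was read as a −log10 of an adjusted p-value, because the lowest score is 1.304 and MACS2 is named. No header states the unit. Identical intervals became 1 region, scored by the highest of its entries, whose number is taken as the number of summits.

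Percentiles and ranks were computed over each whole list, and overlap was at least 1 bp, counted in Python 3.11.15 with pandas 2.3.3, numpy 2.4.6 and scipy 1.17.1. Overlap counting was tested on simulated data, and the whole-list 1 bp overlaps of every pair of lists equalled those of bedtools 2.31.1; distances and joined groups were not checked this way. Coordinates are 1-based. The window and gene positions came from the selection rule, as an hg19 annotation was not used here. Members and lists were chosen with earlier results of these data known. Comparisons within the top 10%, stretches of 100 and 500 kb, flanks and empty stretches were chosen after the data were seen. Named were regions at both genes, the 5 highest-scoring of each list, the best-ranked pairs between lines, the widest regions and the 3 highest NeuroD1 regions of 1 line without the mark; others are singled out by their values. No genome sequence is printed.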

Additional observations from a re-analysis of the deposited data

Results flagged for a closer look

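The share of NeuroD1 regions with H3K4me3 of the same line, taken in the window minus the whole list, went opposite ways in the lines. H82 was at 22.5 percentage points and H524 at −2.08, a gap of 24.6. Of the 14 marked regions of H82, 10 lay from 128.0 to 128.5 Mb. For window regions in the top 10% by score, the reference was the top 10% of the list instead of the whole list. Both lines were above that reference, H82 by 18.8 points and H524 by 7.86. The difference was not tested, since each line has 1 library, and the H524 value changed sign under 4 of 8 alternatives.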

How the results depend on the processing

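Relative to the list under the same setting, the lower sharing of H3K4me3 between lines kept its direction under all 8 alternatives. So did the higher share of marked NeuroD1 regions in H82. For the top 10% by score, the reference was the top 10% of the list. H3K4me3 sharing in H524, −41.8 points from its list, was −7.49 within 1 Mb of the MYC start. In H82 both results drew largely on the regions from 128.0 to 128.5 Mb. The cause of the changes that follow was not tested. Sharing of H82 NeuroD1, 13.1 points above its list, came to 44.6 with lists of equal length, 23.1 with regions within 10 kb joined, −18.6 with 200 bp around the centre and −2.73 in the top 10%, an alternative chosen after seeing the data. For H524 NeuroD1, 7.46 points became 22.7 when joined, −1.14 with 200 bp and −1.42 in the top 10%. The marked share of H524 NeuroD1, −2.08 points, became 2.75 at or above the median score, 0.297 within 1 Mb of the MYC start, 11.7 with regions within 10 kb joined and 7.86 in the top 10%. With 200 bp around the centre, sharing was 18.5% and 5.81% for NeuroD1 in H82 and H524 and 0% for H3K4me3 in both, and marked shares were 18.5% and 2.33%. Joining gave sharing of 35.5% and a marked share of 32.3% for H524 NeuroD1, and median percentiles of 99.6 for H524 NeuroD1 and 43.1 for H82 H3K4me3. H3K4me3 sharing was 41.7% in H82 and 28.6% in H524 in the top 10%, and 45.5% in H524 within 1 Mb. For NeuroD1 in H82 and H524 and H3K4me3 in H82 and H524, the window held 69, 291, 116 and 107 summit entries, or 15, 31, 13 and 20 joined regions. Within 1 Mb H524 had 49 NeuroD1 and 11 H3K4me3 regions, with lists of equal length 56 NeuroD1 regions, and at or above the median score H3K4me3 had 20 in H82 and 23 in H524. Within 25 kb of the MYC start the lists had 2, 4, 2 and 3 regions, and within 1 kb of the PVT1 start H524 NeuroD1 and H82 H3K4me3 had 2 each. Median percentiles of H3K4me3 went from 72.4 to 44.7 in H82 when ranked by width and from 55.8 to 29.6 in H524 within 1 Mb. No paired analysis was possible because each group has 1 library, and none could be left out.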
